A study of Mus musculus with 8 samples.

Results

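The cytokines that signal through gp130 (IL-6, IL-11, LIF, CLCF1 and CTF1), their receptor chains and the feedback inhibitor SOCS3 were examined in primary murine cardiac fibroblasts. The genes Il6, Il11, Lif, Clcf1, Ctf1, Il6st, Lifr, Osmr, Il11ra1 and Socs3 were chosen by symbol, and all 10 were found among the 22274 genes of the deposited count table. Some cytokines of this family, IL-6 and IL-11 among them, first bind a receptor of their own, while LIF binds LIFR directly. All signal through the shared chain gp130, encoded by Il6st. It pairs with a second gp130 chain (IL-6, IL-11) or with LIFR or OSMR (LIF, CLCF1, CTF1, oncostatin M). Janus kinases bound to these chains then phosphorylate STAT3, which induces Socs3, and SOCS3 in turn binds gp130 and shuts the signal off. In fibroblasts, Il11 and Il6 are known as genes that TGF-β and inflammatory stimuli induce, and IL-11 is known for its role in fibrosis of the heart.

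RNA was sequenced from heart fibroblasts in culture, with 4 libraries labelled GFP, which carried the empty vector, and 4 labelled OEIRF7, which were meant to overexpress IRF7. Cells of both groups had received a virus and, by the study's description, 24 h of TGF-β at 5 ng/ml, so there were no libraries without virus or without TGF-β. The methods name adenovirus with a FLAG-tagged IRF7 while the deposited design names an adeno-associated virus, and the methods place the study's mouse strains on a C57BL/6 J background without giving the age or sex of the mice behind these cultures. The labels do not say whether the libraries of a group came from separate cultures or animals, so p-values measure the spread between these libraries, which may be technical.

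Total counts ranged from 24454801 to 28658826 per library, and 13533 genes, all 10 of the family included, passed the filter on low counts. Mouse Irf7, the targeted gene, had 2861, 3680, 2272 and 3291 counts in the libraries labelled GFP (replicates 1 to 4) and 385, 421, 380 and 404 in those labelled OEIRF7, a fall by 2.96 on the log2 scale (SE 0.12, Benjamini-Hochberg adjusted p = 7.7e-11, quasi-likelihood test of edgeR). The reagent list names an adenovirus with human IRF7 behind a CMV promoter, together with EGFP. It also names an adeno-associated virus with mouse Irf7 behind a periostin promoter, which the paper describes for injected mice. Reads of a human transgene may not be counted as mouse Irf7. The fall thus does not check the labels if the transgene was human and goes against them if it was mouse, and every direction below is between libraries as labelled. The myofibroblast genes Acta2 and Tagln fell by 1.83 and 0.98 on the log2 scale under the label OEIRF7 (named after their values were seen). Fibroblast markers were high in every library. Levels are given as counts per 1000000 counts of the tested genes, scaled between libraries (CPM). The sums over these markers were 15632 to 16227 CPM under the label GFP and 14328 to 15227 under the label OEIRF7. Of these 10 markers 5 were called lower and 2 higher, where 29.9% and 29.0% of all genes tested were called so. Tcf21, a transcription factor of cardiac fibroblasts, fell by 1.33 on the log2 scale, the largest change among the 10. The median log2 fold change of these markers was -0.12, and the 2 called higher were Pdgfra (0.25) and Vim (0.22). Markers of other cells were present at lower levels. The summed CPM ranged from 264 to 314 and 335 to 371 for macrophages and leukocytes (4 of 6 tested genes called higher, 0 lower), from 27.5 to 32.2 and 66.8 to 81.9 for mural cells (2 of 3 higher, 1 lower), from 174 to 183 and 172 to 190 for endothelial cells (2 of 5 higher, 1 lower), and from 59.7 to 73.2 and 45.0 to 53.3 for epicardial cells (2 of 4 higher, 1 lower). Of 6 cardiomyocyte markers 5 were below 1 CPM and the sixth, Tnnt2, was called lower, and the lymphocyte marker Cd3e had no count in any library. The part of these cells in the results below was not tested, and in bulk RNA fewer cells of a type and less RNA per cell cannot be told apart.

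Of the 10 genes, 3 (Clcf1, Il11 and Socs3) rose and 3 (Ctf1, Il11ra1 and Il6st) fell in the libraries labelled OEIRF7 with an adjusted p (edgeR) under 0.05. Differences were common in these libraries. Of all genes tested, 58.9% were called, 29.0% higher and 29.9% lower, so the number of family members called in either direction was close to that background. By size, 3 of the 10 were past a 2-fold rise, against 4.66% of all genes tested, and 0 past a 2-fold fall (3.89% of all genes), with Ctf1 at the line. The median log2 fold change was -0.02 over the family and 0.00 over all genes tested. Il6, Lif, Lifr and Osmr were not called.

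**Figure D1:**
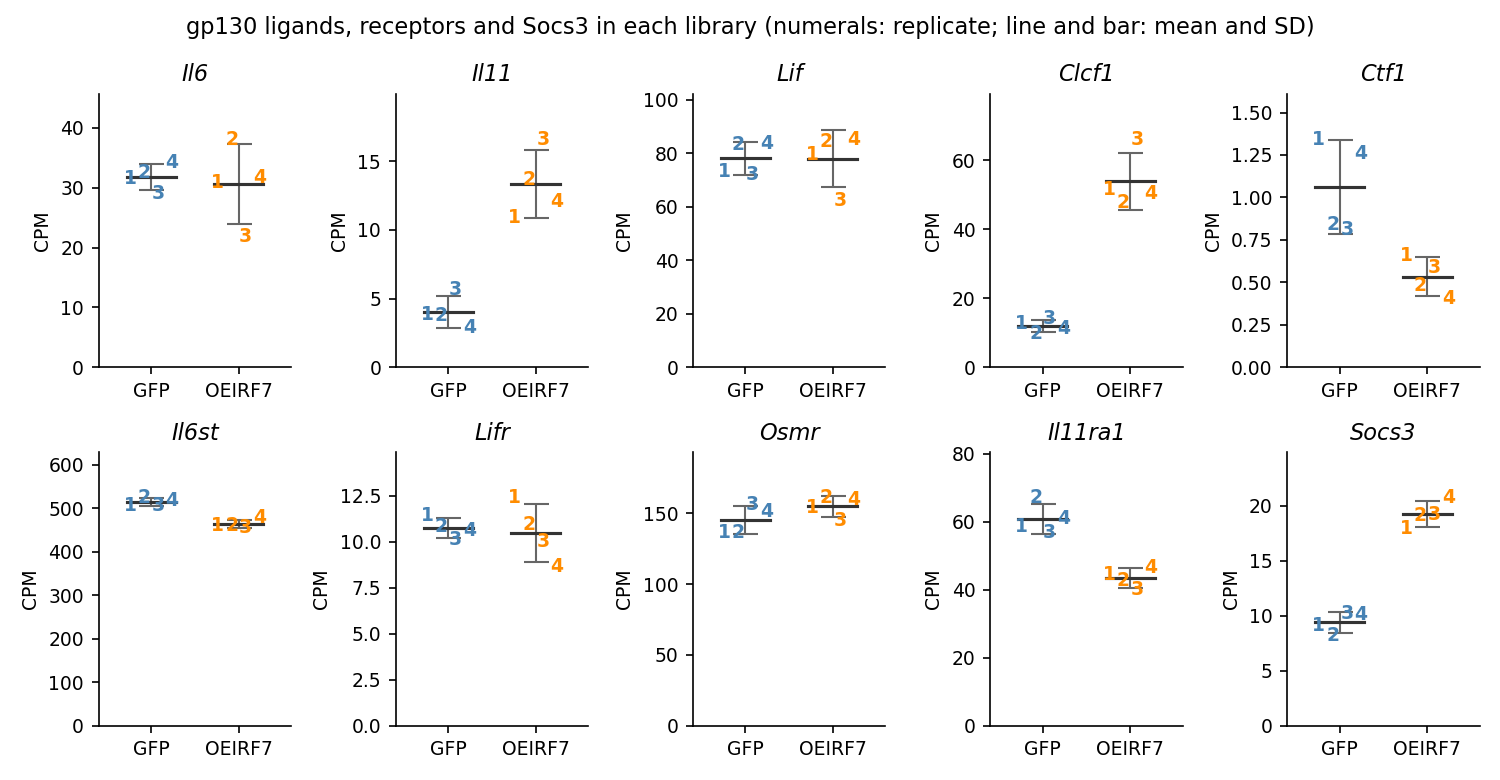
Counts per 1000000 counts of the tested genes (CPM, scaled between libraries, linear axis from 0) of each gene in the 4 libraries labelled GFP and the 4 labelled OEIRF7. Numerals are single libraries named by replicate number, and lines and bars are the mean and SD. Clcf1, Il11 and Socs3 are higher and Ctf1, Il11ra1 and Il6st lower in all 4 libraries labelled OEIRF7, and the groups overlap for the other genes.

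Clcf1 (ENSMUSG00000040663), a cytokine that acts through the CNTF receptor, LIFR and gp130, showed the largest rise of the family. It lies on the plus strand of chromosome 19 from 4214238 to 4223490 of GRCm38. Replicates 1 to 4 held 337, 246, 348 and 293 counts under the label GFP and 1327, 1381, 1684 and 1243 under the label OEIRF7. The lowest library labelled OEIRF7 held more than 3 times the counts of the highest labelled GFP, and replicate 3 was the highest in each group. This was 11.9 ± 1.83 and 53.9 ± 8.31 CPM (SD, n = 4 per group), a 4.52-fold rise (95% interval 3.82 to 5.33, adjusted p = 6.6e-10 from edgeR), which ranked 149 of 13533 genes from the highest fold change. Another annotated gene on the same strand, AC109138.7, overlaps Clcf1 and had at most 18 counts in a library.

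Il11 (ENSMUSG00000004371), on the minus strand of chromosome 7 from 4772373 to 4782859, whose product acts through IL11RA1 and gp130, rose as well. Its counts were 102, 94, 139 and 76 under the label GFP and 281, 397, 423 and 298 under the label OEIRF7. The groups did not overlap, as for 53.8% of all genes tested, and replicate 3 was again the highest of each group. The level was 4.03 ± 1.15 and 13.3 ± 2.47 CPM (SD, n = 4 per group), a 3.32-fold rise (95% interval 2.58 to 4.27, adjusted p = 5.8e-07 from edgeR) at rank 252 from the highest. The spread between replicates was wide for a gene of this level, with a coefficient of variation of 28.6% under the label GFP and 18.6% under the label OEIRF7.

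Il6 and Lif, the ligands with the most reads under the label GFP, were not called. Il6 (ENSMUSG00000025746, chromosome 5 from 30013114 to 30019981), the inflammatory cytokine that names the family, had 846, 813, 715 and 897 counts under the label GFP and 798, 1106, 555 and 782 under the label OEIRF7. The highest and the lowest of the 8 libraries, replicates 2 and 3, both carried the label OEIRF7, and the libraries labelled GFP lay between them. The fitted log2 fold change, -0.05 with SE 0.12, was not called (adjusted p = 0.73, edgeR), with a 95% interval of the fold from 0.81 to 1.15. Without replicate 3 of the libraries labelled OEIRF7 the log2 fold change was 0.08 (adjusted p = 0.38 from edgeR).

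Lif (ENSMUSG00000034394, chromosome 11 from 4257557 to 4272514), a cytokine that binds LIFR directly, had 1964, 2073, 1778 and 2194 counts under the label GFP and 2055, 2444, 1591 and 2102 under the label OEIRF7. As for Il6, replicate 3 was the lowest of each group by CPM. The mean was 78.0 ± 6.20 and 77.9 ± 10.6 CPM (SD, n = 4 per group), and the 95% interval of the fold ran from 0.88 to 1.13 (adjusted p = 0.99 from edgeR). The intervals of Il6 and Lif do not overlap those of Clcf1 and Il11.

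Ctf1 (ENSMUSG00000042340, chromosome 7 from 127712736 to 127718192), cardiotrophin 1, a ligand of LIFR and gp130 known for its action on cardiac myocytes, was the least abundant member and the ligand that fell. It had 36, 21, 20 and 33 counts under the label GFP and 17, 14, 15 and 10 under the label OEIRF7. All libraries labelled OEIRF7 were lower, by a small number of reads. The fall was by 0.99 on the log2 scale (SE 0.28, adjusted p = 0.0073 from edgeR), and its 95% interval, -1.60 to -0.39, spans folds on both sides of 2. Without replicate 2 or 3 under the label GFP, or without replicate 1 or 3 under the label OEIRF7, the fall was past 2-fold. Ctf2, its neighbour and paralog on the opposite strand, had at most 2 counts.

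**Figure D2:**
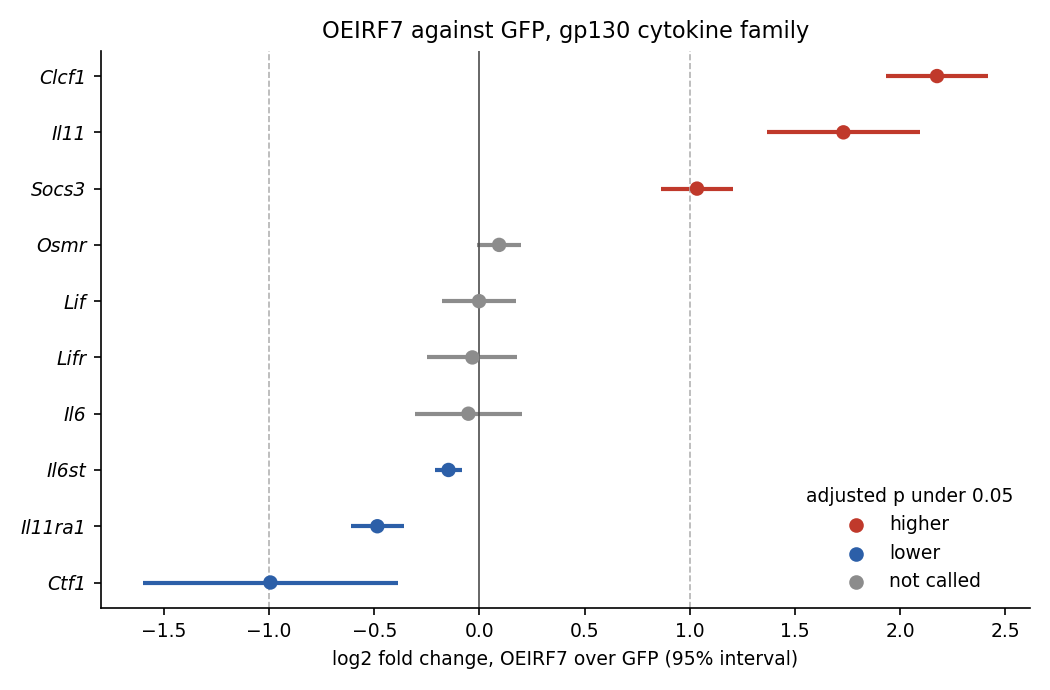
Log2 fold change of the 10 genes (OEIRF7 over GFP) with 95% intervals from edgeR's quasi-likelihood fit. Red and blue mark an adjusted p under 0.05, grey marks genes not called, and dashed lines mark 2-fold. Clcf1 and Il11 stand clear of the dashed line, while the intervals of Socs3 and Ctf1 cross it.

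Of the 4 receptor genes none rose and 2 fell, where 29.0% and 29.9% of all genes tested were called higher and lower. Il11ra1 (ENSMUSG00000073889, plus strand of chromosome 4 from 41699989 to 41769474), the chain that binds IL-11, had 1570, 1676, 1401 and 1596 counts under the label GFP and 1151, 1237, 1018 and 1151 under the label OEIRF7. The groups did not overlap in counts or in CPM. The level fell from 60.8 ± 4.53 to 43.5 ± 2.86 CPM (SD, n = 4 per group), a difference of -0.49 on the log2 scale (SE 0.058, adjusted p = 4.9e-06, edgeR). The receptor gene was thus lower in the libraries in which its ligand gene Il11 was higher. Its annotated span overlaps other genes, among them Galt on the same strand (log2 fold change -0.15, adjusted p = 0.09 from edgeR). The strand setting of the counting was not given in the sources used here, so reads shared with overlapping genes make Il11ra1 less certain. The near copy Il11ra2 had at most 1 count, and how reads that map to both genes were handled was not given.

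Il6st (ENSMUSG00000021756, chromosome 13 from 112464070 to 112510086), the shared chain gp130, was the most abundant member. Its counts were 13605, 13103, 12483 and 13602 under the label GFP and 11897, 13399, 11616 and 11810 under the label OEIRF7. After scaling for library size the groups did not overlap, with 514 ± 9.13 and 464 ± 9.93 CPM (SD, n = 4 per group). The fall by 0.15 on the log2 scale (SE 0.029, adjusted p = 0.00052 from edgeR) was small but larger than the spread between replicates, which was 1.78% and 2.14% of the mean.

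Osmr and Lifr, the chains that pair with gp130 for oncostatin M and LIF, lie beside each other on chromosome 15. Osmr (ENSMUSG00000022146) had 3656, 3416, 3855 and 3971 counts under the label GFP and 3977, 4676, 3685 and 3939 under the label OEIRF7, and its log2 fold change of 0.09 (SE 0.050) had an adjusted p of 0.12 (edgeR). It was the member nearest to the threshold. Without replicate 3 of the libraries labelled GFP or of those labelled OEIRF7, its adjusted p was 0.041 and 0.036 (edgeR), with log2 fold changes of 0.13 and 0.12. Lifr (ENSMUSG00000054263) had 307, 270, 250 and 278 counts under the label GFP and 320, 317, 255 and 213 under the label OEIRF7. Its groups overlapped, and the 95% interval of its fold was 0.84 to 1.13 (adjusted p = 0.79 from edgeR).

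Socs3 (ENSMUSG00000053113, minus strand of chromosome 11 from 117966079 to 117970047), the inhibitor that gp130 signaling induces, had 244, 205, 251 and 265 counts under the label GFP and 463, 555, 489 and 512 under the label OEIRF7. Every library labelled OEIRF7 was well above every library labelled GFP, and the replicates were close to each other. The level was 9.40 ± 0.93 and 19.3 ± 1.15 CPM (SD, n = 4 per group), a 2.05-fold rise (95% interval 1.82 to 2.30, adjusted p = 4.6e-08 from edgeR). Without replicate 2 of the libraries labelled GFP or replicate 4 of those labelled OEIRF7 the log2 fold change was 0.97 and 0.997, just under 2-fold.

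To compare levels between genes, the deposited FPKM values, scaled by length as well as by library, were used. In the libraries labelled GFP, Il6st had the highest level of the family, 83.9 ± 1.83 FPKM (SD, n = 4). Il11ra1 (32.2 ± 2.51), Il6 (30.3 ± 2.13) and Osmr (26.8 ± 1.84) came next, and neighbours in this order overlapped between libraries. Lif (19.4 ± 1.55) and Clcf1 (6.39 ± 0.98) followed, each apart from its neighbours. Socs3 (3.65 ± 0.36) and Il11 (2.42 ± 0.65) overlapped, and Lifr (1.58 ± 0.10) and Ctf1 (0.78 ± 0.20) were lowest. Under the label OEIRF7, Clcf1 reached 29.8 ± 4.06 FPKM and stood in one overlapping group with Il6 (29.7 ± 6.61) and Osmr (29.1 ± 1.51), while Il11ra1 dropped to 23.4 ± 1.56 and overlapped Lif (19.7 ± 2.72). Il11 reached 7.98 ± 2.33 FPKM, close to Socs3 at 7.61 ± 0.44, and Lifr (1.68 ± 0.25) and Ctf1 (0.42 ± 0.10) remained at the bottom.

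**Figure D3:**
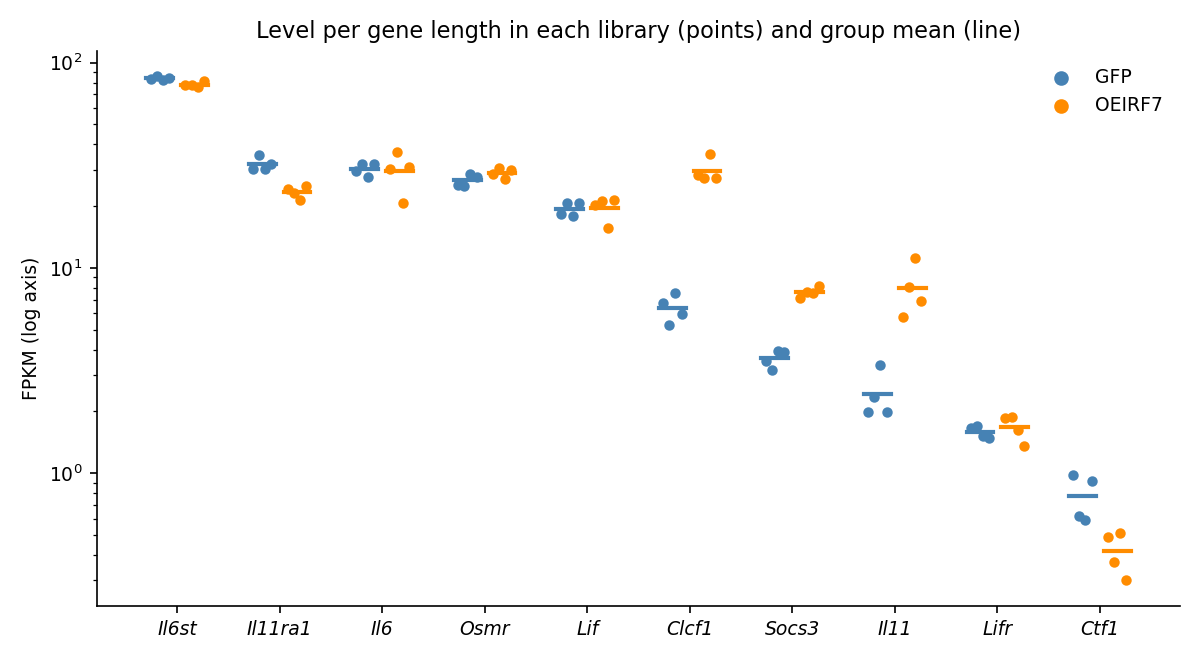
FPKM of each gene on a log axis, with one point per library and a line for the group mean, ordered by the mean of the libraries labelled GFP. Clcf1 moves from a level between Lif and Socs3 to that of Il6 and Osmr, and Il6st is highest in both groups.

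The make-up of the ligands changed with these values. Clcf1 held 10.8% ± 2.06 of the summed FPKM of the 5 ligands under the label GFP and 34.2% ± 5.94 under the label OEIRF7 (SD, n = 4 per group). The share of Il6 was 51.0% ± 1.81 and 33.7% ± 6.25, that of Lif 32.7% ± 1.34 and 22.4% ± 2.64, and that of Il11 4.10% ± 1.22 and 9.15% ± 2.87. The summed ligand FPKM was 59.4 ± 2.34 under the label GFP and 87.5 ± 4.37 under the label OEIRF7. Within a library, the ratio of Il11 to Il6 in FPKM was 0.067, 0.074, 0.12 and 0.062 under the label GFP and 0.19, 0.22, 0.54 and 0.22 under the label OEIRF7. Replicate 3 had the highest ratio of each group. Among the 4 receptor genes Il6st held most of the summed FPKM, 58.1% ± 0.77 and 59.1% ± 0.86. Il11ra1 and Osmr changed places, with Il11ra1 at 22.2% ± 1.2 and 17.7% ± 0.66 and Osmr at 18.5% ± 1.39 and 22% ± 0.63. The ratio of Osmr to Lifr was 17.0 ± 2.23 and 17.7 ± 3.07, and that of Il11ra1 to Il6ra, the chain that binds IL-6, was 20.5 ± 3.09 and 13.9 ± 1.57. These ratios are descriptions with no test.

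The promoter sequences of 4 members are shown because 2 of these genes rose (Il11, Socs3) and 2 were not called (Il6, Lif) although all are known as inducible genes. Windows of 300 bases, 250 before and 50 after the RefSeq start on GRCm38.p6, were matched for the members other than Clcf1, 9 of 10, with the nearer of 2 RefSeq windows to the GENCODE start used for Il11, Lifr and Il11ra1. The RefSeq start lay at most 33 bases from the start of the GENCODE gene for Il6, Il11, Lif, Ctf1 and Il6st, but 656 bases away for Osmr, 681 for Socs3, 38958 for Lifr and 60454 for Il11ra1, so these 4 windows lie inside the GENCODE span. The windows were searched on both strands for STAT (TTCNNNGAA), AP-1 (TGANTCA), CRE (TGACGTCA), NF-kB (GGGANNNNCC) and IRF (GAAANNGAAA) motifs, which occur in 8.30%, 7.81%, 1.79%, 20.7% and 3.44% of all 32851 promoter windows. Capitals mark matches, and in Il6 an NF-kB match on each strand overlaps the other, offset by 1 base. The windows are chr7:4782808-4783107 on the minus strand for Il11, chr11:117969317-117969616 on the minus strand for Socs3, chr5:30012864-30013163 on the plus strand for Il6 and chr11:4257318-4257617 on the plus strand for Lif, each written 5′ to 3′ along the gene.
Il11: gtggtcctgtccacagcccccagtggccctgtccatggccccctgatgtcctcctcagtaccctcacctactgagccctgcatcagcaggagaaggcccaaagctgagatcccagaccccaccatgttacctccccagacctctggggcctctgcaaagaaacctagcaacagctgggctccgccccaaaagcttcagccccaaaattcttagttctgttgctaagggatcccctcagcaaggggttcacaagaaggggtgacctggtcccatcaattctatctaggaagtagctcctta
Socs3: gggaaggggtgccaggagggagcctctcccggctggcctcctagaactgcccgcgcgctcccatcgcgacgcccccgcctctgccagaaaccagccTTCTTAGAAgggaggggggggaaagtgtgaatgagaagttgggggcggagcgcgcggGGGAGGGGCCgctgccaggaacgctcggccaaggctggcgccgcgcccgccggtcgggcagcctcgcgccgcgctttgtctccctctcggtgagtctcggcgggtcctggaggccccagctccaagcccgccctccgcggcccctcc
Il6: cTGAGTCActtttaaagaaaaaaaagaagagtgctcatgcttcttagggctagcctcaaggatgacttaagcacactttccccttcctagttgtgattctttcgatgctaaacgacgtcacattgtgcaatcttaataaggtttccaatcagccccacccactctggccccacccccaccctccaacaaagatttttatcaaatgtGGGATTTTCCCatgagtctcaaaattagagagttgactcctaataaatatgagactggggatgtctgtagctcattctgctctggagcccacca
Lif: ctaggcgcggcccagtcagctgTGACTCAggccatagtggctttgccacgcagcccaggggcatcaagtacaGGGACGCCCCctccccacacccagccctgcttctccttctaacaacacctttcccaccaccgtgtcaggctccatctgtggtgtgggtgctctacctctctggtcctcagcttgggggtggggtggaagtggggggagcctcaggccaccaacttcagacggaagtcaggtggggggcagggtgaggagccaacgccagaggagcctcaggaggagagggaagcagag
The Socs3 window was the only one of the 9 with a STAT match, with its first base at -154 from the RefSeq start, and it also held an NF-kB match at -97. The Il6 window held AP-1 at -249 and NF-kB at -44, and the Lif window AP-1 at -228 and NF-kB at -178. None of the 5 motifs was found in the windows of Il11, Ctf1 and Il6st, which says only that these letters are not in these windows. No window held a CRE or IRF match. At least 1 match was held by the windows of Il6, Lif, Lifr, Osmr, Il11ra1 and Socs3, and the matches are descriptions of sequence, not sites of binding. The share of all promoter windows with any of the 5 motifs was not counted, so matches were not compared between called and other members.

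**Figure D4:**
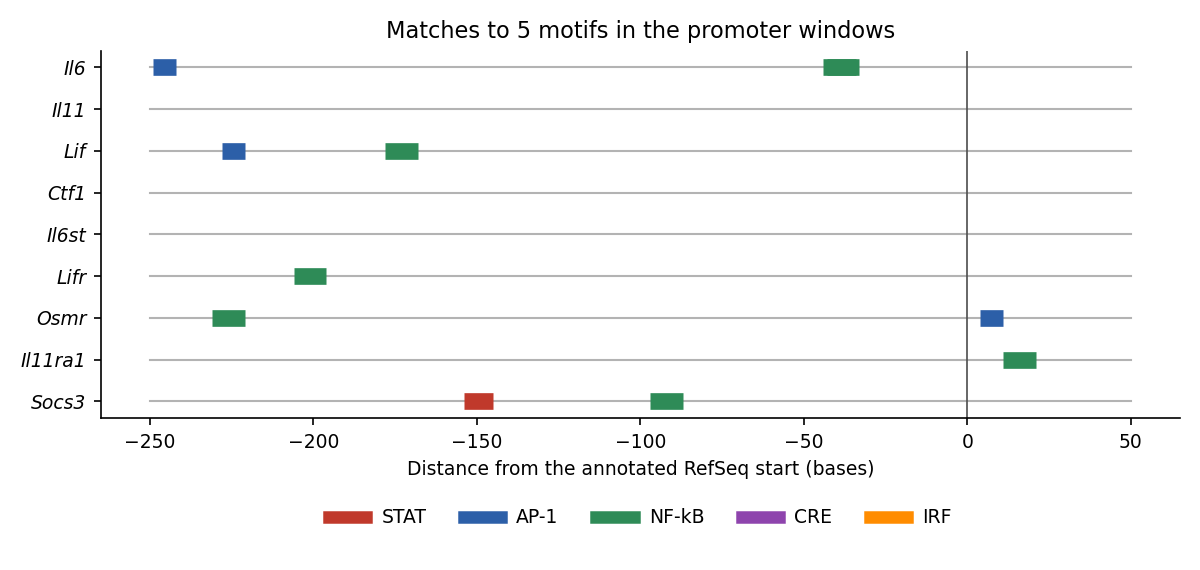
Positions of matches to 5 motifs in the promoter windows of 9 members, in bases from the annotated RefSeq start. Grey lines span the windows, and colored blocks are matches. Il6, Lif, Lifr, Osmr, Il11ra1 and Socs3 hold an NF-kB match, Socs3 alone a STAT match, and CRE and IRF matches are absent.

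The other genes of the pathway were described from lists by role. Of 7 further ligands 3 passed the filter and 2 were called higher, as were 29.0% of all genes tested. Osm, oncostatin M, which acts through OSMR and is made mainly by myeloid cells, had 2, 4, 7 and 7 counts under the label GFP and 15, 31, 23 and 25 under the label OEIRF7. The groups did not overlap, and the rise was 4.50-fold (95% interval 2.55 to 7.94, adjusted p = 0.0002 from edgeR) on few reads. Of the 6 tested macrophage and leukocyte markers, 4 rose in the same libraries. Itgam rose 2.10-fold, Adgre1 1.35-fold, Lyz2 1.17-fold and Cd68 1.16-fold (adjusted p = 1.6e-09, 0.00034, 0.0021 and 0.027 from edgeR). Ptprc and Csf1r, also of that list, were not called (log2 fold changes -0.08 and 0.06). Whether any of these go together with Osm was not tested.

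Of 7 further receptors and shedding enzymes 5 were tested, of which 1 rose and 1 fell (20% each, against 29.0% and 29.9% of all genes). Cntfr, the chain that binds CNTF and CLCF1, rose, with 26 to 41 counts per library under the label GFP and 53 to 62 under the label OEIRF7. This was 0.82 on the log2 scale (SE 0.19, adjusted p = 0.0020, edgeR), at a level near 2 CPM. Adam17, a protease that sheds the IL-6 receptor, fell by 0.14 (adjusted p = 0.012 from edgeR), a call lost in limma on FPKM. Il6ra had 183 to 240 counts under the label GFP and 204 to 247 under the label OEIRF7, and its log2 fold change of 0.08 (SE 0.093) had an adjusted p of 0.45 (edgeR).

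The kinases, STAT factors and adaptors moved little. Of 9 genes 3 rose, 4 fell and 2 were not called (33.3% higher and 44.4% lower, against 29.0% and 29.9% of all genes). None was past 2-fold. Stat3, the main transcription factor of the pathway, fell by 0.18 on the log2 scale (adjusted p = 0.00019, edgeR), with means of 253 ± 6.32 and 223 ± 3.85 CPM (SD, n = 4 per group). Gab1, an adaptor of gp130 signaling, fell by 0.60 and Stat5b fell by 0.40 (adjusted p = 1.8e-06 and 1.7e-06 from edgeR). Jak1, a kinase bound to gp130, had a log2 fold change of 0.09 (adjusted p = 0.031 from edgeR). That call was lost in 7 of the alternatives, 6 of which left out 1 library. The kinase gene Jak2 rose by 0.39 on the log2 scale without overlap (adjusted p = 8e-06 from edgeR). Tyk2 was not called (log2 fold change 0.04, adjusted p = 0.55 from edgeR). Jak2 and Tyk2 were named after their values were seen.

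Among 11 further inhibitors 5 rose and 2 fell (45.5% and 18.2%, against 29.0% and 29.9% of all genes). Cish, a SOCS family gene known as a target of STAT5, had 95, 69, 68 and 82 counts under the label GFP and 342, 486, 405 and 387 under the label OEIRF7, with no overlap. It was the largest rise among the inhibitors, 5.04-fold (95% interval 4.29 to 5.91, adjusted p = 2.2e-10 from edgeR), and larger in fold than that of Socs3. The other inhibitors stayed within 2-fold.

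Of 16 genes known to respond to STAT3, 15 were tested, of which 11 rose and 2 fell (73.3% and 13.3%, against 29.0% and 29.9% of all genes), with a median log2 fold change of 0.65 against 0.00. Most of these genes also respond to other signals. The list was written from textbook knowledge but with earlier results of these data known, and it was not tested as a set. Junb, an AP-1 factor, had 48.3 ± 1.19 and 128 ± 3.58 CPM (SD, n = 4 per group), a rise by 1.41 on the log2 scale. Pim1, a kinase gene, rose by 1.52, Bcl3, an NF-kB cofactor, by 1.87, and Cebpb, a factor of the acute phase response, by 1.17 on the log2 scale. Steap4 rose by 1.37 (adjusted p = 0.0046 from edgeR) on 5 to 40 counts, and its groups overlapped. The adjusted p of the other 4 lay between 1.2e-12 and 1.2e-06 (edgeR), and all 4 libraries labelled OEIRF7 were higher for each. The acute phase genes Hp and Lcn2 were not called, and Cebpd and Lbp fell by 0.42 and 0.38. These 4 were named after their values were seen.

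**Figure D5:**
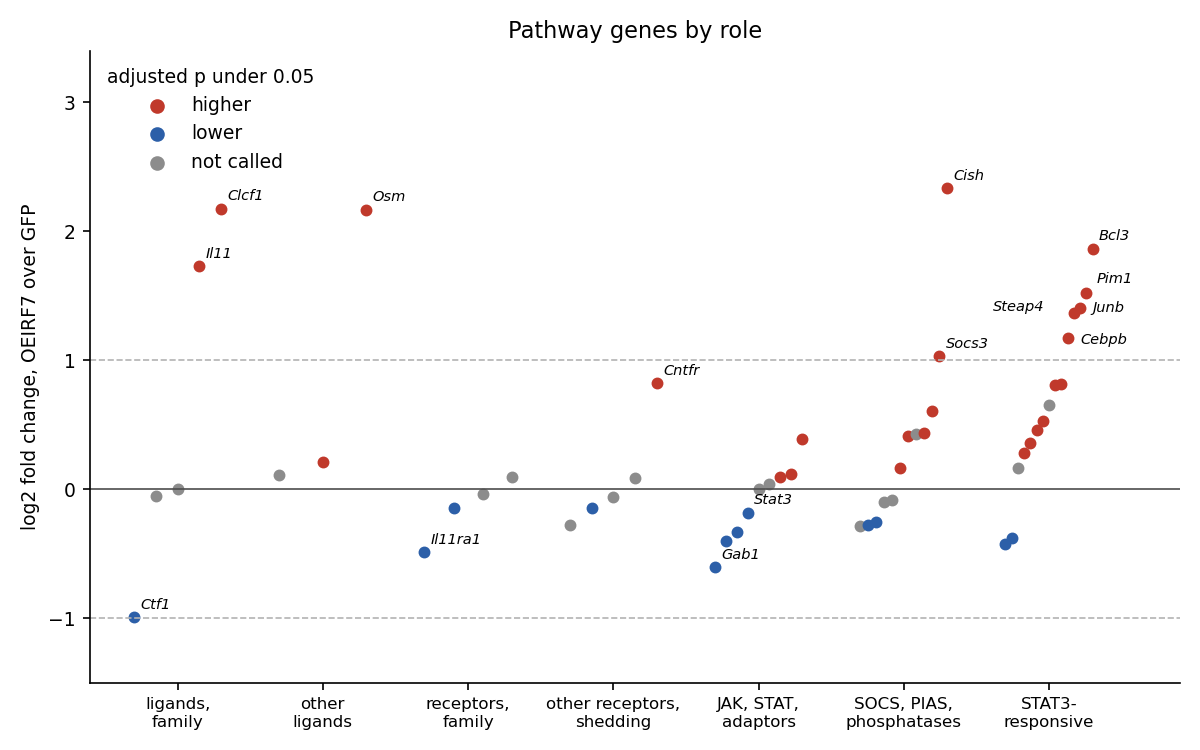
Log2 fold change (OEIRF7 over GFP) of the tested genes of the family and of the other pathway genes, by role, with Socs3 among the inhibitors. Each point is a gene, red and blue mark an adjusted p under 0.05, and dashed lines mark 2-fold. Points above the upper line are Clcf1, Il11, Osm, Cish, Socs3, Bcl3, Pim1, Junb, Steap4 and Cebpb, and no point is below the lower line.

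The deposited table itself assigns 180 genes to the KEGG JAK-STAT pathway, of which 106 were tested. Of these 34 were called higher and 32 lower (32.1% and 30.2%), close to the shares of all genes. Without the genes named in the lists above, 18 of 69 were higher and 24 lower (26.1% and 34.8%, against 29.0% and 29.9% of all genes), with a median log2 fold change of -0.04. The median log2 fold change of the 106 genes was 0.01.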

How the data were processed

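The authors trimmed reads with Trimmomatic, mapped them to GRCm38 with HISAT2 and deposited raw HTSeq-count counts, with FPKM from Cufflinks rounded to 2 decimals. Tool versions and the strand setting are not given in the sources used here. The deposited log2 ratio of group means, p-value and FDR are the authors' own comparison and were not used, nor were their mean FPKM. Paper and labels differ on the kits and the virus.

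Counts were analyzed in R 4.3.3 with edgeR 4.0.16 (filterByExpr, TMM scaling, glmQLFit, glmQLFTest, no covariates, Benjamini-Hochberg over 13533 genes). Scaling factors were 0.989 to 1.01, and genes below about 1 CPM rest on few reads. Fold changes are OEIRF7 over GFP. Coordinates came from GENCODE M21 and promoters from RefSeq. The genes and lists were chosen with earlier results of these data known. Named were all 10 members, Irf7, Il6ra, Cntfr, Stat3 and Jak1, and per list the genes past 2-fold or, without any, those with the 2 smallest adjusted p. Replicates differed by more than sampling noise (chi-square over degrees of freedom 2.95 to 10.4). Alternatives were DESeq2 1.42.0, other scalings and filters, a replicate block, each library left out in turn, and limma 3.58.1 on log2(FPKM + 1) and log2(FPKM + 0.1). The scripts were tested on simulated data, where false calls of edgeR ran above the nominal share.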

Additional observations from a re-analysis of the deposited data

Results flagged for a closer look

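Of 50 groups of 4 libraries (the 25 named genes in both groups), 4 had 1 library far from the other 3, where chance gives about 1 in 20. Pim1 had 92.3 CPM in replicate 3 labelled OEIRF7, against 67.7 to 70.5 CPM in the others of that label. Cebpb had 25.3 CPM in the same library, against 24.5 CPM in the others, a gap that is small in size. Adam17 had 62.6 CPM in replicate 4 labelled OEIRF7, against 67.8 to 68.6 CPM. Stat5b had 43.5 CPM in replicate 2 labelled GFP, against 41.4 to 41.6 CPM. No member of the cytokine family was among them.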

How the results depend on the processing

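Each member called as higher or lower kept its direction and its call under all 16 alternatives. The counts of members called stayed at 3 to 4 higher and 3 lower when 1 library was left out, and past 2-fold at 2 to 3 higher and 0 to 1 lower. The size depended on the unit for low genes. On log2(FPKM + 1), which understates them, Ctf1 had a log2 fold change of -0.32, Il11 1.37 and Socs3 0.89. Osmr was called without replicate 3 labelled GFP (0.13) or OEIRF7 (0.12), with a range of 0.062 to 0.13 over the libraries left out. Of the members that were not called, Il6, Lif and Lifr changed sign around 0. Lif had 0.0007 with DESeq2, 0.0042 with at least 10 counts in every library, 0.026 without TMM and 0.0084 in limma on FPKM with either pseudocount, and -0.047 to 0.090 with 1 library left out. Lifr had 0.070 on log2(FPKM + 0.1) and 0.048 on log2(FPKM + 1), and -0.12 to 0.047 with 1 library left out. Il6 had -0.18 to 0.080 with 1 library left out, positive only without replicate 3 labelled OEIRF7. Of the further ligands 1 was higher when at least 10 counts were required in every library, since fewer genes were tested. Of the receptors and shedding enzymes 0 were lower in limma on log2(FPKM + 0.1) and on log2(FPKM + 1), and of the genes that respond to STAT3 1 was lower in both and without TMM, and 1 to 2 with 1 library left out. The cause was not tested. The replicate numbers do not pair the libraries by the labels. Deviations of libraries with the same number correlated at 0.079 to 0.14 over genes, and each library labelled GFP correlated best with its own number. With the replicate block 8211 genes were called in place of 7969, Il11 had a log2 fold change of 1.73, and no call of a member changed.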

Other observations

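Replicate 3 stood at an end of its group for 4 of the 5 ligands, under both labels. It had the lowest Il6 (29.0 CPM under the label GFP, 21.8 under the label OEIRF7) and the lowest Lif (72.0 and 62.5 CPM). It had the highest Il11 (5.63 and 16.6 CPM) and the highest Clcf1 (14.1 and 66.1 CPM). The STAT3-responsive gene Pim1 was highest there as well (29.0 and 92.3 CPM). The labels give no shared culture, animal or day for libraries of the same number, and this pattern was seen after the values were known and was not tested. By depth, replicate 3 labelled GFP was the lowest of its group, with 24888589 counts against 25166577 to 27095611 in the others. Replicate 3 labelled OEIRF7 had 25429004 counts, in a group that ranged from 24454801 to 28658826. The part of depth in this pattern was not tested. Over all tested genes, the chi-square over degrees of freedom in pairs with replicate 3 labelled OEIRF7 was 7.36, 10.4 and 9.76. It was 2.95, 3.69 and 4.66 in the other pairs of that label. Pairs with replicate 3 labelled GFP had 3.64, 6.92 and 4.10, and the other pairs of that label 5.69, 3.55 and 6.19. Some low genes were nearly missing in a single library. The acute phase gene Hp had 2 counts in replicate 1 labelled GFP and 63 to 123 in the other 7 libraries, and Cntf, the ligand of CNTFR, had 1 count in replicate 2 labelled OEIRF7 and 10 to 21 in the others. Neither gene was called.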
